A study of Mus musculus with 10 samples.

Results

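Gene expression of CD4+ cells from the spleens of wild-type mice was compared between 1 and 4 months of age, from the weeks after weaning to young adulthood. The comparison used 6 of the 10 arrays of the study, chosen by their titles: 3 arrays of wild-type mice at 4 months against 3 at 1 month. The design text gives every array its own mouse. The other 4 arrays were from mice lacking Il1rn, which encodes the natural antagonist of the receptor for interleukin-1, with 2 mice at each age. They entered the shared estimate of the spread and 1 comparison at the end. Wild type refers to the Il1rn locus, and the labels name no treatment, no strain, no sex and no purity of the CD4+ preparation. Total RNA was extracted with Trizol, labelled with biotin and hybridised to Affymetrix arrays. Each age had its own mice and no array date is given, so age and any handling that went with it cannot be told apart.

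CD4+ T cells arise in the thymus from precursors that rearrange their receptor genes, and leave it as recent emigrants that finish their maturation in spleen and lymph nodes. With age and antigen exposure, cells that have met antigen gather beside the naive pool. These effector and memory cells carry receptors for inflamed tissue and for cytokines such as interleukin-18. The spleen of a young mouse is also a site of blood formation, where granulocyte and red cell precursors divide, and this activity declines as the animal matures. In bulk RNA from a cell preparation, fewer cells of a type and less RNA per cell cannot be told apart.

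Most markers of the labelled cell type were bright in every array. Cd3d, a chain of the T cell receptor complex, ranged from 11888 to 15435 intensity units in the 1-month arrays and from 17164 to 19885 in the 4-month arrays. Cd4 read 2491, 4001 and 2134 at 1 month and 3977, 2836 and 3487 at 4 months, and the ages overlapped. Zbtb7b, another of these markers, was dimmer, at 403 to 891 and 536 to 559 on the brighter of its sets. Markers of other cells were present as well. Summed over the measured members of each list, B cell markers lay between 49220 and 62060 at 1 month and between 60300 and 81150 at 4 months, macrophage markers between 19780 and 36630 and between 16280 and 20930, and erythroid markers between 127800 and 176700 and between 81390 and 138000. Jchain, which links secreted antibodies in plasma cells, read 19610 to 31670 over the 6 arrays. Granulocyte markers summed to 58220, 15260 and 16540 at 1 month and to 3126, 12740 and 3999 at 4 months. Thus 1-month replicate 1 was the array richest in granulocyte transcripts, and 4-month replicate 2 was the richest of its age in granulocyte and erythroid transcripts. The probe sets of Cdh5 (endothelium), Col1a1 (stroma) and Siglech (plasmacytoid dendritic cells) were too dim to be kept. Array medians were 71.1 to 84.6 at 1 month and 99.7 to 109.3 at 4 months, and the 3' to 5' ratio of Gapdh, a measure of RNA integrity, was 0.746 to 0.765 and 0.642 to 0.658. The same ratio overlapped between the ages for actin (1.133 to 1.402 and 1.143 to 1.187) and for Tfrc (1.995 to 4.394 and 2.064 to 2.254). Granulocyte sums, array medians and the Gapdh ratio were separate between the ages, while B cell, macrophage, erythroid and Jchain values overlapped. Also separate, and higher at 4 months, were the sums of CD4 T cell identity genes (68670 to 87500 and 96190 to 113300). The same held for CD8 T and NK cell markers (5990 to 7942 and 14290 to 15860). The part of these features in the results below was not tested.

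**Figure D1:**
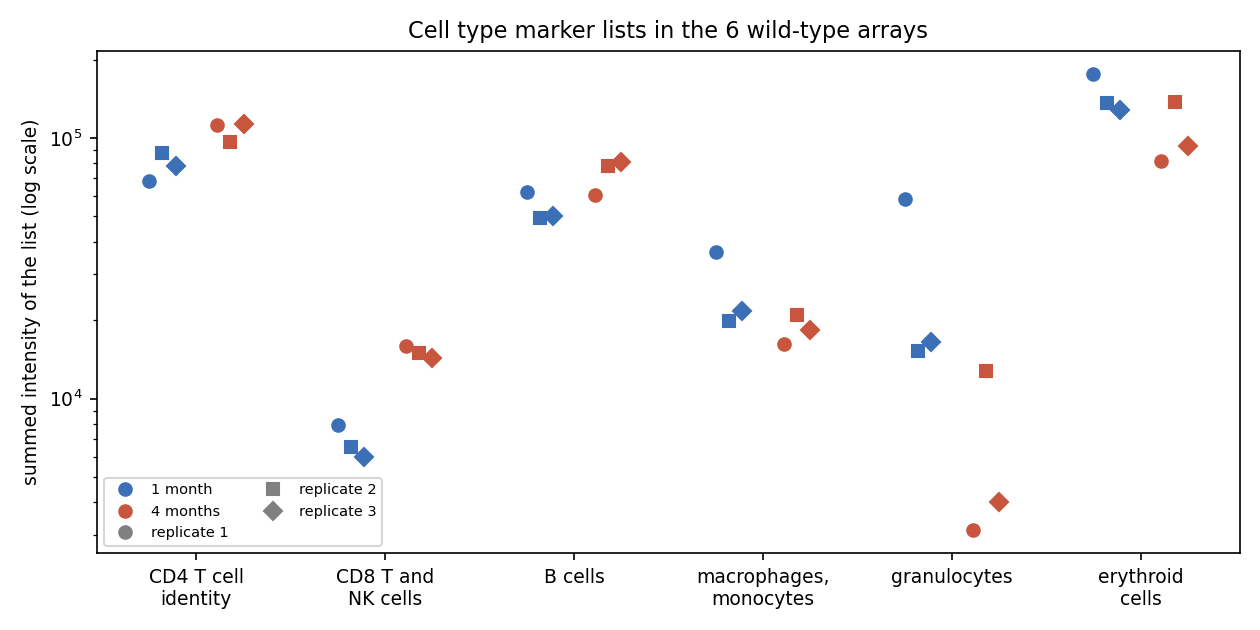
Summed intensity (log axis) of the measured members of 6 cell type marker lists in the 6 wild-type arrays, with 1 point per array, colour for age and shape for replicate. The granulocyte sum was 58220 in replicate 1 of 1 month, and at 4 months replicate 2 (12740) stood above replicates 1 and 3 (3126 and 3999).

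Of 11759 genes tested, 789 rose between 1 and 4 months (6.71%) and 1148 fell (9.76%), by limma with Benjamini-Hochberg adjustment at 0.05. Of these, 320 rose and 224 fell at least 2-fold. Values are differences in log2(intensity + 16) between the means of 4 months and 1 month, ± the standard error of limma, with 3 arrays per age. The arrays of the ages did not overlap in 1955 genes in the upward direction (16.6%) and in 2344 in the downward direction (19.9%) of all those tested, among them 786 of the genes called higher and 1132 of those called lower. The first principal component of the 10 arrays held 47.7% of the variance, and the wild-type arrays lay at -34.9, -12.9 and -24.4 at 1 month and at 36.7, 17.8 and 34.1 at 4 months. The counts rested on single mice to a degree: limma called 443 higher and 523 lower without 1-month replicate 1, 267 and 350 without 4-month replicate 1, and 261 and 286 without 4-month replicate 3. Without 1-month replicate 1 and 4-month replicate 2 together, 290 rose and 409 fell. Quantile normalization moved the median of all genes from -0.03 to -0.16 and gave 820 and 1676.

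Many effector and memory T cell genes rose. Of 37 measured, 20 rose (54.05%, against 6.71% of all genes), 1 fell and 16 did not pass. The median was 0.78, against -0.03 for all genes tested. Cxcr6, a receptor that guides memory cells into tissue, read 1275, 1017 and 947 at 1 month and 4845, 4224 and 4497 at 4 months. Every array of 4 months lay above every array of 1 month, and the rise was 2.06 ± 0.19 (limma adjusted p = 9.76e-05). S100a4, a calcium-binding protein of memory T cells, read 1256, 1070 and 815 at 1 month and 4864, 4135 and 4005 at 4 months, a rise of 2.05 ± 0.21 (limma adjusted p = 0.000182). Crip1, a LIM domain protein, read 2629, 2782 and 2263 at 1 month and 8222, 6811 and 7481 at 4 months, a rise of 1.55 ± 0.16. These genes differed little among mice of an age. The scaffold protein gene Ahnak read 561, 677 and 947 at 1 month and 3566, 3060 and 3093 at 4 months, a rise of 2.16 ± 0.24 (limma adjusted p = 0.000319).

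Receptors and effector molecules followed the same direction. Il18r1 and Il18rap encode both chains of the interleukin-18 receptor. Il18r1 read 629, 861 and 1306 at 1 month and 4998, 4015 and 4360 at 4 months, a rise of 2.30 ± 0.37 (limma adjusted p = 0.00264), and Il18rap rose by 1.44 ± 0.20 from a lower level. The chemokine receptors Ccr6, Ccr2 and Cxcr3 rose by 1.81 ± 0.24, 1.39 ± 0.22 and 1.05 ± 0.20. Ccl5, a chemokine of effector cells, rose by 1.86 ± 0.29, and Gzmb, the cytotoxic protease granzyme B, by 1.14 ± 0.32. Further rises were those of S100a6 (1.16 ± 0.21), the galectin Lgals3 (1.29 ± 0.34), the inhibitory receptor Klrg1 (0.81 ± 0.22) and the integrin Itgae (0.92 ± 0.27). The regulators Prdm1 (0.75 ± 0.23) and Id2 (0.43 ± 0.13) rose as well. Cd44, the surface protein by which memory cells are commonly sorted, went the other way on its brightest probe set, from 4112, 4206 and 3764 to 2854, 2865 and 2461 (-0.56 ± 0.12), while 2 further sets gave 0.12 and 0.47. The direction of Cd44 therefore depends on the probe set, and it was 0.01 in the mean of its sets. Without 4-month replicate 1, or without replicate 3, 11 of the list rose, and over the 10 fits without 1 array the count ran from 11 to 22 and the median from 0.70 to 0.83.

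**Figure D2:**
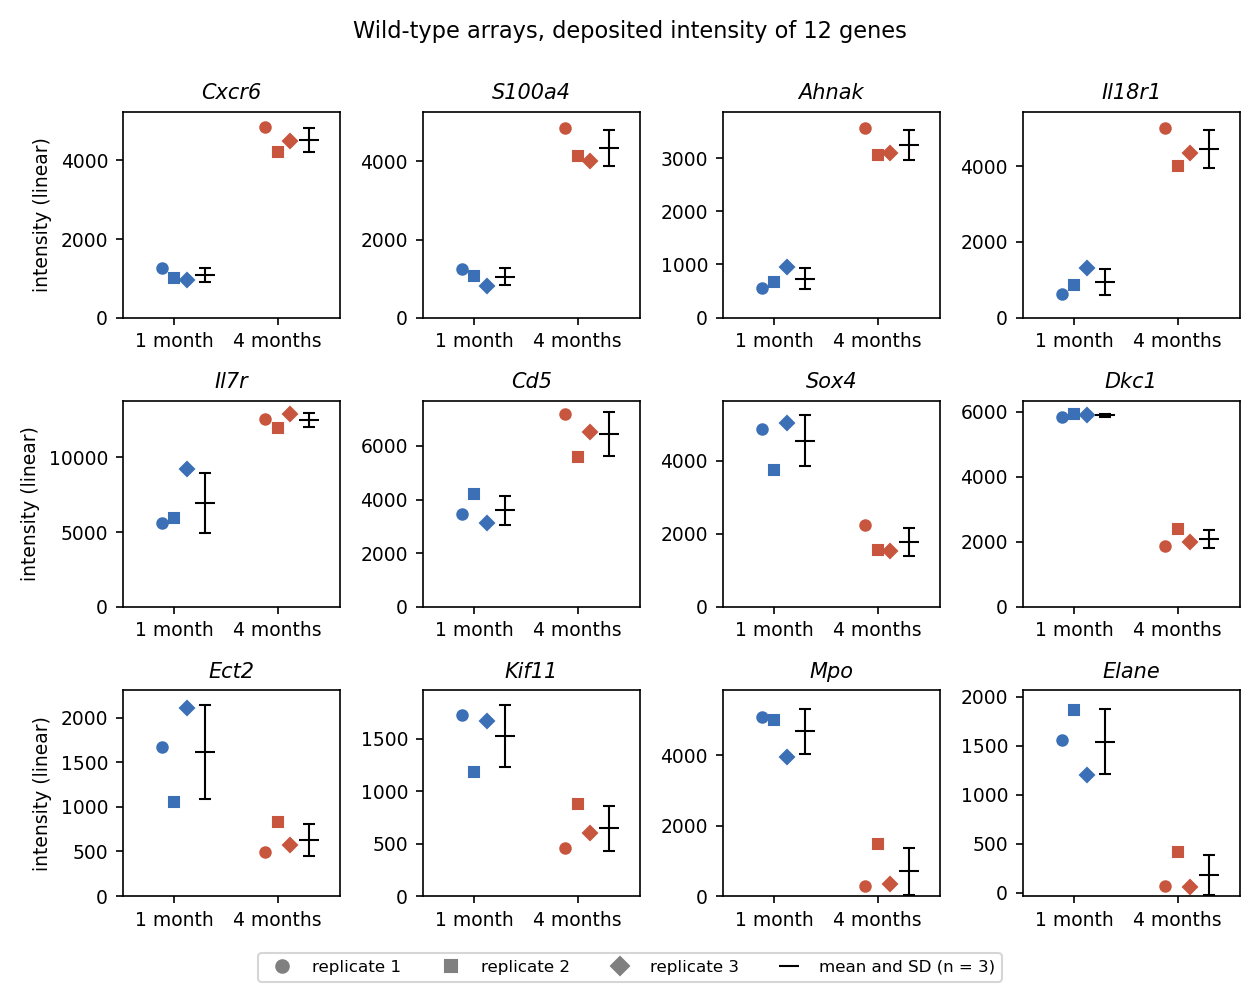
Deposited intensity (linear axis) of 12 genes in the 6 wild-type arrays, with 1 point per mouse, shape for replicate, and the mean and SD of 3 beside them. Cxcr6, S100a4, Ahnak, Il18r1, Il7r and Cd5 lay higher in every array of 4 months, Sox4, Dkc1, Ect2, Kif11, Mpo and Elane lower, and 4-month replicate 2 was the highest of its age for the last 4.

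Of 14 genes of Th1 cells, the helper lineage that makes interferon-gamma, 7 rose (50%, against 6.71% of all genes) and 14 were positive. The median was 0.77. The effector list holds 9 of the 14, and of the other 5 only Stat4 rose. Stat4, which transmits the interleukin-12 signal, read 1342, 1401 and 1183 at 1 month and 2538, 2106 and 2381 at 4 months, a rise of 0.83 ± 0.23 (limma adjusted p = 0.0283). The lineage regulator Tbx21 differed by 0.58 ± 0.25 (limma adjusted p = 0.124) and Ifng itself by 0.47 ± 0.38 (adjusted p = 0.435), and neither passed. In the other helper lists, 3 of 13 Th17 genes rose (Ccr6, Il6st and Rora), as did 4 of 21 genes of regulatory T cells (Tnfrsf18, Itgae, Klrg1 and Prdm1) and 0 of 8 Th2 genes. The first 2 shares were 23.08% and 19.05%, against 6.71% of all genes. The effector list holds 2 of the 13 Th17 genes, and of the other 11, 2 rose. It holds 4 of the 21 genes of regulatory T cells, and of the other 17, 1 rose. The count for regulatory T cells was 0 without 4-month replicate 1 or 3 and 1 without 1-month replicate 1. Foxp3, which defines regulatory T cells, differed by 0.51 ± 0.29 (limma adjusted p = 0.256), and Gata3, the Th2 regulator, by -0.11 ± 0.32 (adjusted p = 0.85). Without 1-month replicate 3, or either of 4-month replicates 1 and 3, 4 Th1 genes rose.

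Markers of CD8 T cells and NK cells moved with the effector genes. Their summed intensity was 7942, 6532 and 5990 at 1 month and 15860, 14950 and 14290 at 4 months. Of 20 measured, 10 rose (50%, against 6.71% of all genes), 20 were positive and the median was 0.89. Cd8a, a chain of the CD8 coreceptor, read 233, 98 and 103 at 1 month and 465, 965 and 528 at 4 months, a rise of 2.08 ± 0.59 (limma adjusted p = 0.0321). The arrays did not overlap and 4-month replicate 2 was the highest. Cd8b1, the other chain, read 530, 447 and 396 at 1 month and 1059, 1548 and 979 at 4 months, a rise of 1.34 ± 0.27. The activating receptor Klrk1 rose by 2.79 ± 0.47 and the protease Ctsw by 1.36 ± 0.24, and perforin (Prf1) rose too. Klrk1 was near the floor at 1 month (112, 11 and 33), and its rise was 3.35 with a pseudocount of 1 and 1.99 with 64. The effector list shares 7 of its 37 genes with this list, and of the other 30, 17 rose and 1 fell. The part of CD8 T or NK cells in the effector genes was not tested. Without 4-month replicate 1 or replicate 3, 4 marker genes rose.

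**Figure D3:**
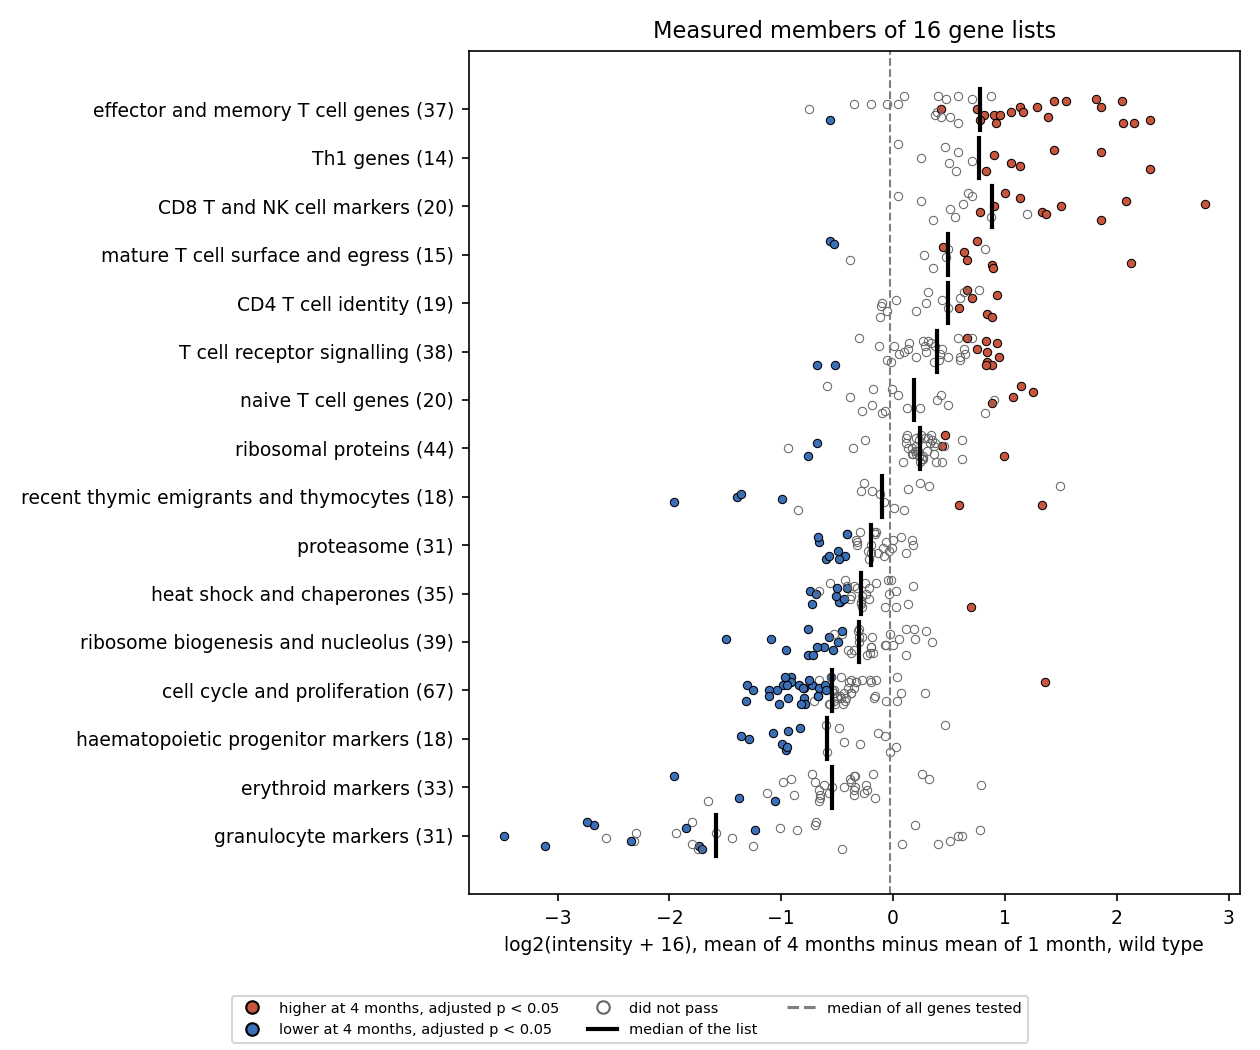
Difference between 4 months and 1 month in wild type, log2(intensity + 16), for the measured members of 16 gene lists, with 1 point per gene, filled where limma called it, a bar at the list's median and a dashed line at the median of all genes. The medians run from 0.89 for CD8 T and NK cell markers to -1.58 for granulocyte markers.

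Of 19 CD4 T cell identity genes, 6 rose (31.58%, against 6.71% of all genes), 0 fell and 13 did not pass, with a median of 0.49. Il7r, the interleukin-7 receptor chain that keeps naive and memory cells alive, read 5630, 5914 and 9249 at 1 month and 12587, 11964 and 12906 at 4 months, a rise of 0.88 ± 0.20 (limma adjusted p = 0.0131). The 1-month mice varied widely and the 4-month mice little. Cd5, an inhibitory coreceptor, read 3476, 4202 and 3145 at 1 month and 7208, 5598 and 6536 at 4 months, a rise of 0.84 ± 0.20 (limma adjusted p = 0.0165). Cd6 (0.93 ± 0.28), the adhesion molecule Cd2 (0.71 ± 0.18), the costimulatory receptor Cd28 (0.66 ± 0.13) and the selection factor Themis (0.59 ± 0.18) rose as well. A second probe set of Cd28 differed by -0.22. Without 1-month replicate 1, or 4-month replicate 1 or 3, 1 of the 6 calls was left.

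Of 15 genes of mature surface phenotype and tissue egress, 7 rose (46.67%, against 6.71% of all genes) and 2 fell (13.33%, against 9.76%). The median was 0.49, and without 4-month replicate 3 only 1 rose. H2-Q10, a nonclassical class I molecule, rose by 2.13 ± 0.49 from the floor (17, 36 and 12 at 1 month to 99, 195 and 149 at 4 months). The integrin chain Itgb7, which directs cells to the gut, rose by 0.90 ± 0.27. S1pr1, the receptor for exit into the blood, differed by -0.39 ± 0.24 (limma adjusted p = 0.301). Of 20 naive T cell genes, 4 rose (20%, against 6.71% of all genes): Il7r, Il6ra (1.26 ± 0.24), the integrin activator Rasgrp2 (1.15 ± 0.28) and Dapl1 (1.07 ± 0.18). Without 1-month replicate 1, 4-month replicate 1 or 4-month replicate 3, 2 naive genes rose. The median of the naive list was 0.19, and Ccr7, the receptor for entry into lymph nodes, differed by 0.49 ± 0.23 (limma adjusted p = 0.162).

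A few thymocyte genes fell. Of 18 genes of recent thymic emigrants and thymocytes, 4 fell (22.22%, against 9.76% of all genes) and 2 rose (Themis and Cd8b1), with a median of -0.10. Only 1 fell without 1-month replicate 1, without 4-month replicate 1 or without 4-month replicate 3, 2 fell without 1-month replicate 3, and 1 of 10 did on RefSeq probe sets. Sox4, a transcription factor of immature lymphocytes and other progenitors, read 4865, 3747 and 5030 at 1 month and 2227, 1568 and 1528 at 4 months. The ages were separate, and it fell by 1.36 on the log2 scale, with a standard error of 0.17 (limma adjusted p = 0.000689). Dntt, which adds bases at receptor gene joins, read 385, 280 and 237 at 1 month and 113, 118 and 80 at 4 months (-1.39 ± 0.32). Rag1, a subunit of the recombinase, read 166, 42 and 65 at 1 month and 3.3, 1.7 and 26.6 at 4 months (-1.96 ± 0.58), close to the floor of the array, with -3.52 at a pseudocount of 1 and -0.99 at 64, and it passed limma in 5 of the 10 fits without 1 array. Myb fell by 0.99 on the log2 scale. Vpreb1, a surrogate light chain of precursor B cells, went from 113, 106 and 118 to 13, 11 and 45 (-1.82 ± 0.39), and the part of B lineage precursors in the signal of Rag1 and Dntt was not tested.

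T cell receptor signalling genes leaned upward. Of 38 measured, 9 rose (23.68%, against 6.71% of all genes) and 2 fell (5.26%, against 9.76%). In all, 32 were positive and the median was 0.39. Those that rose include activating members of the pathway and inhibitory ones, besides Cd28, Cd5 and Cd6. Fyn, a proximal kinase, read 2667, 4107 and 3569 at 1 month and 7007, 6085 and 6657 at 4 months, a rise of 0.95 ± 0.20 (limma adjusted p = 0.0093). Plcg1, the phospholipase that starts calcium release, rose by 0.75 ± 0.17 and the transcription factor Nfatc3 by 0.83 ± 0.13. The inhibitory phosphatases Ptpn6 (0.84 ± 0.19) and Ptpn22 (0.83 ± 0.19) and the diacylglycerol kinase Dgka (0.88 ± 0.24) rose too. The exchange factor Sos1 (-0.68 ± 0.19) and Bcl10, a link to NF-kB (-0.52 ± 0.14), fell. Without 4-month replicate 3 the list had 3 genes that rose and 0 that fell, and without replicate 1, 4 and 0.

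The NF-kB list of pathway members and targets had 7 of 26 genes higher (26.92%, against 6.71% of all genes) and 1 lower (3.85%, against 9.76%). Its median was 0.45. Without 1-month replicate 1, 4-month replicate 1 or 4-month replicate 3 the counts were 2 and 0, and without 1-month replicate 3, 4 and 0. Traf1, an adaptor of TNF receptors and a target of NF-kB, read 264, 278 and 357 at 1 month and 2152, 1832 and 1965 at 4 months. It rose by 2.67 ± 0.19, or 6.37-fold, among the smallest adjusted p-values of the comparison (limma, 1.55e-05), and a second probe set rose by 1.28. The cytokines of the TNF family Ltb (0.96 ± 0.28), Lta (0.93 ± 0.27), Tnf (0.79 ± 0.23), Tnfsf14 (1.38 ± 0.40), Tnfsf8 (0.95 ± 0.22) and Fasl (0.90 ± 0.27) were higher at 4 months. They made up 6 of the 7 genes that rose among 19 T cell cytokines (36.84%, against 6.71% of all genes). The cytokine count was 0 without 4-month replicate 1 or 3 and 3 after quantile normalization. Of 27 adhesion genes, 9 rose (33.33%, against 6.71% of all genes) and 1 fell (3.7%, against 9.76%). Slamf6 (1.01 ± 0.24), a receptor of the SLAM family, was among those that rose. The count that rose was 0 without 4-month replicate 1 or 3 and 1 without 1-month replicate 1. It was 3 without 1-month replicate 3 and 5 without either 4-month knockout array. Of 22 chemokine receptors and chemokines, 6 rose (27.27%, against 6.71% of all genes) and 1 fell (4.55%, against 9.76%). In each fit without 1 array, 5 or 6 rose. The effector list holds 5 of the 22, and of the other 17, 1 rose and 1 fell. Cxcr4, the receptor that holds cells in the bone marrow, was the member that fell. It read 1859, 1787 and 1857 at 1 month and 870, 1015 and 940 at 4 months (-0.95 ± 0.20, limma adjusted p = 0.0092).

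By count, more genes fell in the cell cycle list, among the largest lists, than in any other list examined. By share, the progenitor list stood above it (8 of 18, 44.44%). Of 67 measured, 27 fell (40.3%, against 9.76% of all genes), 1 rose and 62 were negative, with a median of -0.55. Ect2, needed for the cleavage furrow, read 1674, 1059 and 2105 at 1 month and 494, 833 and 567 at 4 months (-1.31 ± 0.28, limma adjusted p = 0.00946). Kif11, the motor of the mitotic spindle, read 1724, 1184 and 1672 at 1 month and 457, 882 and 600 at 4 months (-1.25 ± 0.25, adjusted p = 0.00819). In both genes 1-month replicate 2 was the lowest of its age and 4-month replicate 2 the highest, so that these arrays lay closest to each other. The S phase cyclins Ccne1 and Ccne2 fell by 1.11 and 1.31 on the log2 scale, with standard errors of 0.22 and 0.29. Nusap1, Prc1 and Mad2l1, of the spindle and its checkpoint, differed by -1.11, -1.04 and -0.99, and the ribonucleotide reductase subunit Rrm2 by -0.97.

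Other proliferation genes did not follow. Mki67, a protein of dividing cells, differed by 0.29 ± 0.25 (limma adjusted p = 0.471) and Pcna, the replication clamp, by 0.04 ± 0.14 (adjusted p = 0.876). Top2a fell on its brightest probe set (-0.60 ± 0.18) and its other set differed by 1.08. Tyms, a thymidylate synthase, rose by 1.36 ± 0.24 on a dim probe set, while its other set differed by -0.70. The number of cell cycle genes that fell was 43 without 4-month replicate 2, the array richest of its age in erythroid and granulocyte transcripts, and 17 without 1-month replicate 3, 7 without 1-month replicate 1, 5 without 4-month replicate 1 and 6 without 4-month replicate 3. The median stayed between -0.75 and -0.43 in these fits.

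Promoters of many mitotic genes carry a CCAAT box, bound by NF-Y, and the cell cycle homology region (TTTGAA), bound by the complex that represses them in resting cells. RefSeq promoters of GRCm38.p6, 250 bases before to 50 after the start, were searched for CCAAT and TTTGAA on both strands, and matches are in capitals (ATTGG and TTCAAA are the same motifs on the opposite strand). Shown are the 3 largest falls of the cell cycle list with a matched promoter, with genes of 1 chromosome left out. Ect2 and Kif11 hold both motifs and Ccne1 neither. The windows lie at chr3:27153829-27154128 (minus strand), chr19:37376132-37376431 (plus strand) and chr7:38107441-38107740 (minus strand).
Ect2: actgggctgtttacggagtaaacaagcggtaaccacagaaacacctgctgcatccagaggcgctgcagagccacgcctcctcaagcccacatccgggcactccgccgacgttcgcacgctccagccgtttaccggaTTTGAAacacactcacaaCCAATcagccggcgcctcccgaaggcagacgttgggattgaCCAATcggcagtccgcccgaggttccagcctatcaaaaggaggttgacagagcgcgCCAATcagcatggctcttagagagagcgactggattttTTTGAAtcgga
Kif11: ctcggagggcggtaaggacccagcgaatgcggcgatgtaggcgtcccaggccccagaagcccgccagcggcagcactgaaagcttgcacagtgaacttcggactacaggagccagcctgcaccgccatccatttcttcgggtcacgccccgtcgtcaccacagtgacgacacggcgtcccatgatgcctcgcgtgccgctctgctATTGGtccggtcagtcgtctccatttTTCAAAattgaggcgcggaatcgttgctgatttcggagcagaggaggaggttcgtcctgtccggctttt
Ccne1: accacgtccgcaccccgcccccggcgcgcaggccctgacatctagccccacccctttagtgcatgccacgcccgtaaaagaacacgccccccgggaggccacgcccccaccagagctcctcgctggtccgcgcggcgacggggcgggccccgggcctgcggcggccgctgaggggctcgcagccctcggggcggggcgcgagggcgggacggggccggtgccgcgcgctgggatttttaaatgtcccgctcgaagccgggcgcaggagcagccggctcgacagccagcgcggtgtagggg
The window of Ect2 holds 3 CCAAT and 2 TTTGAA matches and that of Kif11 1 of each. A promoter was matched for 56 of the 67 measured cell cycle genes. CCAAT was found in 75% of these, TTTGAA in 48.2% and both in 46.4%, and in the 23 matched genes that fell the shares were 69.6%, 52.2% and 47.8%. Over all 27025 promoters of the same length the shares were 37.9%, 18.1% and 7.12%, and over the 9543 matched genes tested 38.7%, 11.9% and 4.82%. A match is a string of letters in the window and not a measured site.

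Genes for making ribosomes, folding proteins and degrading them were lower at 4 months in part. Of 39 ribosome biogenesis genes, 12 fell (30.77%, against 9.76% of all genes) and 0 rose, with a median of -0.31. Dkc1, the pseudouridine synthase dyskerin, read 5848, 5917 and 5891 at 1 month and 1879, 2390 and 2003 at 4 months (-1.49 ± 0.14, limma adjusted p = 9.76e-05). The 3 mice of 1 month were almost equal, and all mice of 4 months lay far below them. Wdr12, of the large subunit assembly, differed by -1.09 ± 0.16, and the RNA polymerase I subunit Polr1b by -0.95 ± 0.20. Myc, which drives many of these genes, read 4361, 3910 and 3728 at 1 month and 2882, 2889 and 2895 at 4 months (-0.46 ± 0.11, limma adjusted p = 0.0186). Ribosomal protein genes themselves did not share the direction: 3 of 44 rose (6.82%, against 6.71% of all genes) and 2 fell (4.55%, against 9.76%). The number that rose was 0 to 3 without 1 wild-type array, and 14 without either 1-month knockout array. The median was 0.24, or -0.01 after quantile normalization. The count of ribosome biogenesis genes that fell was 7 without 1-month replicate 1 or 4-month replicate 1, and 4 without 4-month replicate 3.

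Of 35 heat shock and chaperone genes, 9 fell (25.71%, against 9.76% of all genes) and 1 rose (2.86%, against 6.71%). Without 4-month replicate 1 or 3, 3 fell, and without 1-month replicate 1, 4 did, with 0 that rose in these fits, while 14 fell without 1-month replicate 2. The mitochondrial chaperonin Hspd1 read 17132, 17030 and 19140 at 1 month and 9691, 12378 and 10265 at 4 months (-0.73 ± 0.12, limma adjusted p = 0.00315). Cct3, a subunit of the cytosolic chaperonin, differed by -0.74 ± 0.13 on its brightest set, while 1 of its 5 other sets, a dim one, was called in the opposite direction, and the stress chaperone Hsp90aa1 by -0.51 ± 0.14. Cirbp, a cold-inducible RNA-binding protein, rose by 0.70 ± 0.17. Of 31 proteasome genes, 8 fell (25.81%, against 9.76% of all genes) and 0 rose, with a median of -0.20. Among those that fell were the regulatory subunits Psmd1 (-0.67 ± 0.14) and Psmd6 (-0.41 ± 0.11). The changes were small, and without 4-month replicate 3 no proteasome gene passed limma, against 2 without 1-month replicate 1 or 4-month replicate 1.

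Probe sets outside named genes rose in a large share. Of 3690 kept probe sets with no gene name, 1697 rose (46%) and 91 fell (2.47%), with a median of 0.82. In the same fit, which adjusts over named and unnamed sets together, the 21957 probe sets of a single gene had 2606 higher (11.9%) and 2196 lower (10%), with a median of 0.01. After quantile normalization the unnamed sets had 1436 higher (38.9%), 170 lower (4.61%) and a median of 0.53, and in the knockout 1781 (48.3%) and 128 (3.47%) of them were called. In either direction, 48.5% of unnamed sets were called in wild type and 51.7% in the knockout. Long noncoding RNA genes had 55 of 388 higher (14.2%) and 5 lower (1.29%), with a median of 0.14, and protein-coding genes 718 of 11252 (6.38%) and 1143 (10.2%). The control probe set for B1 repeats, short interspersed elements common in introns, read 3113, 3049 and 3173 at 1 month and 10402, 8343 and 10252 at 4 months. Quantile normalization left 2154 (9.81%) of the sets of a single gene higher and 3271 (14.9%) lower. For genes whose chosen probe set was designed on a RefSeq message, 147 of 2714 rose (5.42%) and 317 fell (11.7%), and on the other probe sets 642 of 9045 (7.1%) and 831 (9.19%). When probe sets of that kind alone were used, 14 of 25 effector genes rose with a median of 0.90. In the same fit 12 of 29 cell cycle genes fell with a median of -0.56. Over all 3168 genes of that fit, 163 rose and 331 fell.

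**Figure D4:**
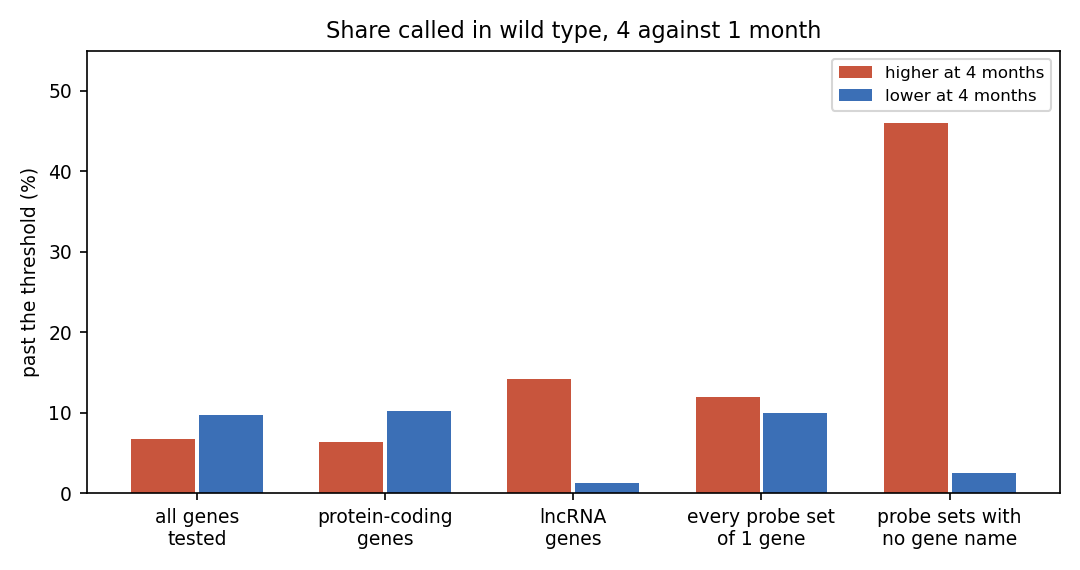
Share (%) of genes or probe sets that limma called higher (red) or lower (blue) at 4 months in wild type, by class. Probe sets with no gene name stand at 46% higher and 2.47% lower, against 6.71% and 9.76% of all genes tested.

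Several named nuclear RNAs rose. Kcnq1ot1, the imprinted antisense transcript of the Kcnq1 locus, read 166, 150 and 161 at 1 month and 2277, 2100 and 2527 at 4 months. It rose by 3.72 ± 0.22, or 13.2-fold (limma adjusted p = 8.6e-06), and on 4 further sets by 1.85 to 2.72. Neat1, the core of paraspeckles, read 981, 1314 and 1677 at 1 month and 3918, 3265 and 4380 at 4 months (1.55 ± 0.20). Malat1, of nuclear speckles, rose by 1.43 ± 0.33, and its 6 other sets by 0.86 to 1.76. Of 46 splicing factors and RNA-binding proteins, a list that holds Neat1 and Malat1, 9 rose (19.57%, against 6.71% of all genes) and 3 fell (6.52%, against 9.76%). Without 4-month replicate 3 the counts were 2 and 1, without 4-month replicate 1, 3 and 1, without 1-month replicate 1, 4 and 2, without 4-month replicate 2, 5 and 3, without 1-month replicate 2, 8 and 6, and on RefSeq sets 1 and 0 of 15. Srrm2, a scaffold of nuclear speckles, rose by 1.43 ± 0.17, and Hnrnpl, a splicing repressor known for exons of CD45, fell from 1921, 3439 and 3095 to 818, 869 and 1081 (-1.56 ± 0.23, limma adjusted p = 0.00148). Rbm39, a splicing coactivator, rose by 1.96 ± 0.19 on its brightest probe set, while its 11 others ran from -0.36 to 2.85, and the direction turned where another set became the brightest.

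The host transcript of miR-142, a microRNA specific to blood cells, was among the strongest rises. Its probe set, named Mir142, read 494, 862 and 493 at 1 month and 2998, 2643 and 3076 at 4 months, a rise of 2.26 ± 0.21 (limma adjusted p = 9.76e-05). Of the 3 microRNA genes measured, 2 rose (66.7%), Mir142 and Mir1949 (1.09 ± 0.18, limma adjusted p = 0.00327), and Mir425 differed by -0.04 ± 0.39. The arrays read the primary transcript or its flanks, and mature microRNAs were not measured. The mature products of Mir142, from RefSeq on GRCm38.p6, are given with the seed, bases 2 to 8, in capitals. They lie on the plus strand at chr11:87756867-87756887 and chr11:87756903-87756925.
miR-142a-5p: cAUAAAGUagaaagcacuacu
miR-142a-3p: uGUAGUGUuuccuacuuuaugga

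The 20 largest rises with separate ages were led by Kantr (4.11 ± 0.49), Phxr4 (3.75 ± 0.44), Kcnq1ot1, Lncpint (3.65 ± 0.34) and St6galnac3 (3.56 ± 0.33). Of these, Kantr, Phxr4, Kcnq1ot1 and Lncpint are long noncoding RNA genes. Phxr4 and Lncpint were at the floor at 1 month (6.8, 16 and 56.8, and 3.8, 9.2 and 4.7), and with a pseudocount of 64 their rises were 2.65 and 2.20. Other sets of the same gene often moved less. Kantr passed in 5 of the 10 fits without 1 array, and with a pseudocount of 1 another of its sets stood for the gene and gave 0.46. The other sets of Kantr differed by 0.43 and 1.20, that of the sialyltransferase gene St6galnac3 by -0.26, those of Tbc1d1 (3.04 ± 0.30), a GTPase regulator of glucose uptake, by 0.33 to 0.49, and that of the centrosome gene Cep295 (2.53 ± 0.18) by 0.12. Dock2, the Rac activator needed for lymphocyte migration, rose in all of its sets, by 2.77, 1.61 and 0.87. Over the 426 risen genes with another kept set, 206 had a second set called in the same direction and 45 had none of the same sign. Among 715 fallen genes these counts were 285 and 112. Another set was called in the opposite direction for 97 of the fallen genes and for 7 of the risen ones.

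Granulocyte genes held 4 of the 5 largest falls among called genes with separate ages, clone names left out. Of 31 measured, 9 fell (29.03%, against 9.76% of all genes) and 0 rose, with a median of -1.58. Elane, neutrophil elastase, read 1555, 1868 and 1201 at 1 month and 66, 419 and 56 at 4 months (-3.48 ± 0.53, or 11.2-fold, limma adjusted p = 0.00194). Mpo, myeloperoxidase, read 5086, 5017 and 3946 at 1 month and 277, 1484 and 344 at 4 months (-3.11 ± 0.46, adjusted p = 0.00164). At 4 months replicate 2 was the highest for both. The proteases Prtn3 (-2.74 ± 0.48) and Ctsg (-2.67 ± 0.42), made with Elane and Mpo in the stage that fills the primary granules, fell too, as did the eosinophil granule protein Prg2 (-2.34 ± 0.48) and Ms4a3 (-1.85 ± 0.28). S100a8, abundant in later neutrophils, varied among mice of an age instead. It read 17484, 1361 and 2966 at 1 month and 255, 3385 and 639 at 4 months, and the ages overlapped. Without 1-month replicate 1 the list's median became -0.76, and 7 genes fell.

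Of 18 progenitor genes, 8 fell (44.44%, against 9.76% of all genes) and 0 rose, with a median of -0.60. The count was 4 without 4-month replicate 1 or 3 and 5 without 1-month replicate 1. Besides Sox4 and Myb these were Hoxa9 (-1.29 ± 0.19), Cd34 (-1.08 ± 0.29), the stem cell factor receptor Kit (-0.96 ± 0.17), and the regulators of early blood and red cell formation Tal1 (-0.95 ± 0.17), Lmo2 (-0.94 ± 0.21) and Gfi1b (-0.83 ± 0.24). A second set of Kit differed by -0.39, and its ages overlapped. Hoxa9 read 703, 523 and 611 at 1 month and 231, 237 and 248 at 4 months, with little spread at either age. Erythroid and macrophage genes passed as lower at about the share of all genes, although most of them were negative. Among the 33 erythroid genes 30 were negative, with a median of -0.54, against -0.03 for all genes. Among the 32 macrophage genes 30 were negative as well. Of 33 erythroid genes 3 fell (9.09%, against 9.76%), 10 did without 4-month replicate 2, 7 without 1-month replicate 2, and 1 without 1-month replicate 1, 4-month replicate 1 or 4-month replicate 3. Of 32 macrophage genes 4 fell (12.5%), with 1 in each of those last 3 fits and 0 of 18 on RefSeq sets. They include the growth factor receptor Csf1r (-1.32 ± 0.34), whose other sets differed by -0.69 and -0.26, and the iron exporter Slc40a1 (-1.30 ± 0.23). The median of the macrophage list was -0.51, or -0.13 without 1-month replicate 1. The largest fall of all was outside these lists. Epdr1, an ependymin-related protein, read 1921, 1777 and 1344 at 1 month and 16, 542 and 10 at 4 months (-4.43 ± 0.84, limma adjusted p = 0.00602), with -3.23 and -2.83 on 2 further sets.

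Of 46 interferon response genes, 6 fell (13.04%, against 9.76% of all genes) and 1 rose (2.17%, against 6.71%), with a median of -0.02, so that the list as a whole lay near the background. Without 4-month replicate 3, 2 fell and 0 rose, and without 1-month replicate 1 or 4-month replicate 1, 3 and 0. Without 1-month replicate 2, 6 fell and 5 rose, and without either 1-month knockout array, 6 and 4. Ifitm1, a membrane protein that blocks virus entry and is also found in germ and progenitor cells, read 2810, 1692 and 1969 at 1 month and 612, 596 and 438 at 4 months (-1.93 ± 0.22, limma adjusted p = 0.000394). Its relatives Ifitm2 (-0.81 ± 0.19) and Ifitm3 (-0.98 ± 0.19) fell too. Rsad2, viperin, fell by 2.28 on the log2 scale (standard error 0.70) from 5861, 771 and 1447 to 267, 686 and 284, and its 1-month level rested on replicate 1. Irgm1 and Irgm2, GTPases of the defence against intracellular microbes, differed by -0.48 ± 0.15 and -0.73 ± 0.18. Nlrc5, the activator of class I genes, rose by 0.71 ± 0.19.

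Whether the change with age depended on Il1rn was asked by the difference between the change in wild type and that in the knockout (2 mice per age). In the knockout 1381 genes rose (11.7%) and 1834 fell (15.6%). Of the 789 genes that rose in wild type, 769 had the same sign in the knockout and 601 were called there, and of the 1148 that fell, 1121 and 822. The difference between the changes was called for 1 gene of 11759 (0.0085%). That gene was Plac8, a small cysteine-rich protein of myeloid and lymphoid cells. In wild type it read 4595, 3518 and 4244 at 1 month and 2787, 2117 and 2049 at 4 months (-0.83 ± 0.15), and in the knockout 8538 and 9247 at 1 month and 1316 and 1384 at 4 months. The wild-type change was 1.87 higher than the knockout change (limma adjusted p = 0.047), and the call was lost in 8 of the 10 fits without 1 array. The next by p were the myeloid genes Ly86 (0.01 in wild type, -3.14 in the knockout), Mpeg1 (-0.34 and -4.57) and Alox5ap (-0.46 and -3.03), and Cxcr4 (-0.95 and 0.86), with adjusted p = 0.107 for Ly86 and 0.173 for the other 3 in limma. The number called ran from 0 to 8 in the fits without 1 array, with 8 without wild-type replicate 1 of 1 month. Without knockout replicate 1 of 4 months, the 1 gene called was another one, of the sign opposite to Plac8. The same held without wild-type replicate 3 of 1 month and without wild-type replicate 2 of 4 months.

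Side by side, effector genes had a median of 0.78 in wild type and 0.59 in the knockout, cell cycle genes -0.55 and -1.33, granulocyte genes -1.58 and -3.03, and CD8 T and NK cell genes 0.89 and 0.24. No member of these 4 lists was called for a difference between the genotypes. In the order given, 12 of 37, 34 of 67, 10 of 31 and 7 of 20 members had an unadjusted limma p under 0.05 for that difference, against 1158 of 11759 genes (9.85%). Granulocyte transcripts were more abundant in the 1-month knockout arrays (summed 84760 and 151900) than in those of wild type, and their part in these differences was not tested.

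**Figure D5:**
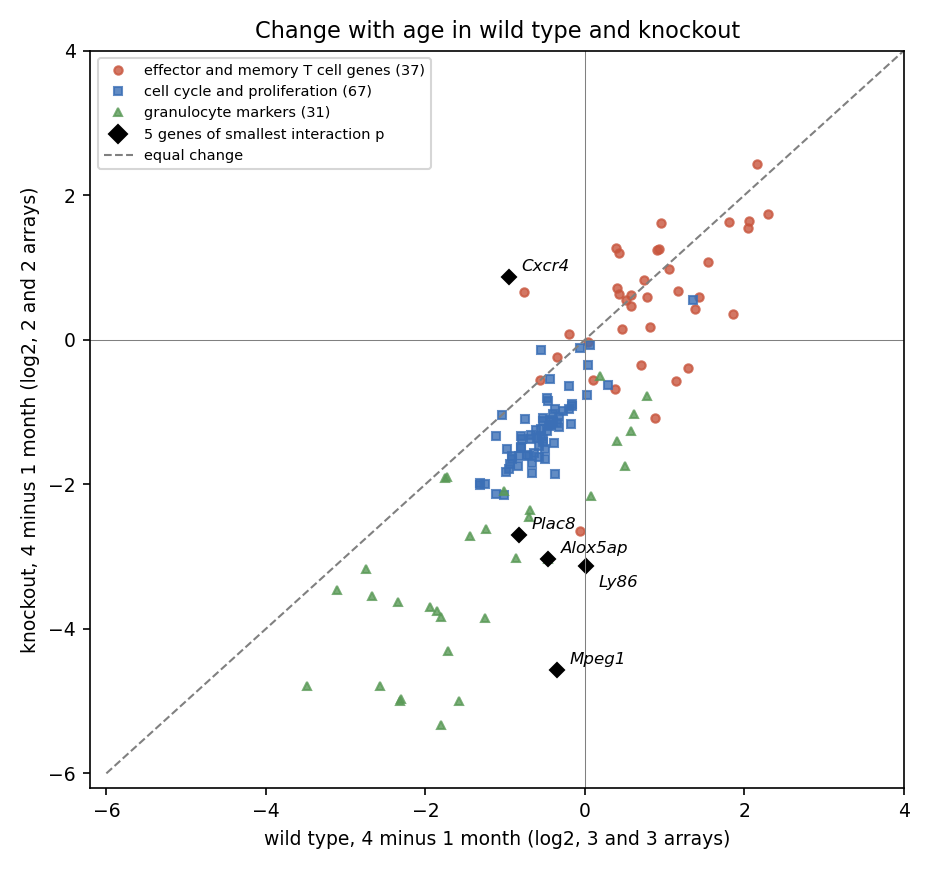
Change from 1 to 4 months in wild type (x axis) and in the knockout (y axis), log2(intensity + 16), for effector and memory, cell cycle and granulocyte genes and the 5 genes of smallest interaction p (black). Points below the dashed line changed more negatively in the knockout, as did Ly86 (0.01 and -3.14) and Plac8 (-0.83 and -2.70), while Cxcr4 lies above it (-0.95 and 0.86).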

How the data were processed

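Per the submitters' processing notes the arrays were summarised with MAS5, and the deposited values are linear intensities, 1 per probe set and array. Each array's 2% trimmed mean was already 500, and no further setting is given in the sources used here. From 45101 probe sets, 34958 carried a single gene name, 932 several and 9211 none in the platform annotation. Sets above the array median in at least 2 of 10 arrays were kept (26314), and the set of highest mean stood for its gene, sets ending in _s_at or _x_at only where no other was kept. Values were analysed as log2(intensity + 16) with limma 3.58.1 in R 4.3.3: 4 group means, an intensity trend, Benjamini-Hochberg adjustment over 11759 genes. The script was tested on simulated data. Array replication, 3 and 3 mice, limits the precision.

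The members and gene lists were chosen with earlier results of these data known. Genes named are the 20 largest rises and 20 largest falls with separate ages (the leading ones described), list members past the threshold, of smallest p or defining a cell type, and the 5 of smallest interaction p. The largest rises and falls were taken among called genes, and symbols that are only a clone or sequence name were left out. Vpreb1, Dock2 and other genes outside the lists come from the largest changes. Same-numbered arrays of the ages did not deviate together (correlations of -0.130, -0.0964 and 0.0410), so the numbers were not used as a block.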

Additional observations from a re-analysis of the deposited data

Results flagged for a closer look

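Signal outside the named genes rose with age in wild type. Of the probe sets with no gene name, 46% were higher at 4 months, and their array medians were 80.7, 99.8 and 107 at 1 month and 229, 212 and 229 at 4 months. The B1 repeat control gave 8342.8 or more at 4 months, against at most 3173 at 1 month. That for B2 repeats read at least 40436.1 at 4 months and at most 39845 at 1 month. The repeat signals belong to no gene and enter no count above.

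The change with age differed between the genotypes for Plac8 by limma, with a wild-type change 1.8739 above that of the knockout (adjusted p = 0.047). The adjusted p ran from 0.0189 to 0.316 over the alternatives, and the call was lost with centring, pseudocount 1, no trend, array weights, the mean of probe sets, the replicate block, without both wild-type arrays richest in granulocyte or erythroid signal, and in 8 of the 10 fits without 1 array. In 4 other genes named here the ages did not overlap in either genotype and moved in opposite directions, as they did in 112 of 11759 genes tested (0.952%), while limma's adjusted test of the difference did not pass. The dendritic cell factor Batf3 read 15.6, 16.3 and 8.5 at 1 month and 109.9, 53.9 and 97.2 at 4 months in wild type, and 53.6 and 198.8 against 14.3 and 25.6 in the knockout, a difference between the changes of 3.5559 (adjusted p = 0.32 in limma). The differences were -0.8746 for the cycle inhibitor Cdkn1b (limma adjusted p = 0.404), -1.8166 for Cxcr4 (0.173) and -1.3871 for Irgm2 (0.258). Cxcr4 in the knockout read 2864 and 2510 at 1 month and 3523 and 6796 at 4 months.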

How the results depend on the processing

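In wild type, leaving out 1 array in turn gave 261 to 1064 genes higher, 286 to 1311 lower and 547 to 2372 in all. No intensity trend gave 701 lower and 1285 in all, array weights 1805, 2282 and 4087, averaging all sets of a gene 1252 higher, every probe set of a single gene, adjusted over those sets alone, 2449, 2057 and 4506, RefSeq probe sets alone (chosen after seeing the data) 163, 331 and 494, and leaving out both arrays rich in granulocyte or erythroid signal (likewise) 290, 409 and 699. Fewer probe sets, more probe sets or fewer arrays enter the last 3; the cause of the other shifts was not tested. The share of calls that were higher, 40.7%, was 56.5% with the mean of probe sets and 54.3% with every probe set. For the difference between the genotypes limma called 0 genes, against 1, with arrays centred on the median, pseudocount 1, no trend, array weights, the mean of probe sets, every probe set, RefSeq sets or the replicate block, and 0 to 8 without 1 array, while 1158 had an unadjusted p under 0.05 in the reported fit.

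With the replicate number as a block, pairing arrays that share only a number, 792 genes were higher and 1092 lower, 1884 in all, of which 1761 were shared.

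Single genes changed sign as follows; apart from probe set choice, the cause was not tested. Cd44 was 0.0087 and Top2a 0.24 with the mean of their sets. Array weights gave 0.12 for Gata3, 0.21 for Mir425, -0.11 for Mki67 and -0.26 for Ly86, quantile normalization -0.13 for Jchain, -0.20 for Ly86 and -0.10 for Pcna, and centring -0.0129 for Ly86. Without both arrays named above, Jchain was -0.14, Mpeg1 0.0612 and Pcna -0.10. Over the fits without 1 array the values ran from -0.33 to 0.23 for Gata3, -0.0873 to 0.26 for Jchain, -0.19 to 0.34 for Ly86, -0.21 to 0.18 for Mir425, -1.03 to 0.0734 for Mpeg1, -0.0954 to 0.15 for Pcna and -0.39 to 2.20 for Rbm39, which was below 0 where another of its probe sets was the brightest.

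The number of mice and, for genes near the floor such as Rag1, Klrk1, Phxr4 and Lncpint, the signal over background limit these values.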

Other observations

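Among 29 immediate early genes 3 rose (10.34%, against 6.71% of all genes) and 2 fell (6.9%, against 9.76%) in wild type. Without 4-month replicate 1 or 3 the counts were 1 and 0. Junb, a subunit of the AP-1 factor, read 513, 963 and 339 at 1 month and 2090, 1844 and 1998 at 4 months (1.81 ± 0.33, limma adjusted p = 0.005), and it passed in each of the 10 fits without 1 array. Gadd45b, a stress sensor, rose by 1.21 ± 0.28, while Klf10, a target of TGF-beta, fell by 1.01 on the log2 scale. Of 17 glucocorticoid response genes 3 rose (17.65%, against 6.71% of all genes) and 3 fell (17.65%, against 9.76%). Without 4-month replicate 1 or 3 or 1-month replicate 1, 2 rose and 2 fell. Mt2, a metallothionein, read 5982, 4728 and 6837 at 1 month and 2120, 2362 and 2477 at 4 months (-1.31 ± 0.16), and Pik3ip1, an inhibitor of PI3 kinase, rose by 1.34 ± 0.25. Of 16 circadian clock genes, Clock (0.81 ± 0.16), Nr1d2 and Rora rose (18.75%, against 6.71%) and Per2 (-0.88 ± 0.24) fell (6.25%, against 9.76%). Without 1-month replicate 1 or 4-month replicate 1, 1 rise and 0 falls were left. The labels give no hour of sampling.

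Of 29 apoptosis and survival genes 6 fell (20.69%, against 9.76% of all genes) and 2 rose (6.9%, against 6.71%). Without 4-month replicate 3, 1 fell and 1 rose, without 4-month replicate 1, 3 and 0, and without 1-month replicate 1, 4 and 0, while 4 or 5 rose without 1 of the 1-month knockout arrays. Bak1, a pore former of the mitochondrial membrane, read 438, 972 and 410 at 1 month and 189, 203 and 218 at 4 months (-1.40 ± 0.29, limma adjusted p = 0.00843). Igha, the constant region of IgA made by plasma cells, read 3325, 2942 and 1346 at 1 month and 9209, 13550 and 12302 at 4 months (2.28 ± 0.53, limma adjusted p = 0.0149), while Jchain overlapped between the ages. Casp1, which matures interleukin-1 beta and interleukin-18, rose by 0.81 ± 0.19. With both interleukin-18 receptor chains it made up the 3 of 21 interleukin-1 family genes that rose (14.29%, against 6.71% of all genes).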
